A study of Drosophila melanogaster with 8 samples.

Results

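The glial genes are 10 genes that mark or control glia of the fly nervous system: repo, gcm, gcm2, loco, moody, Eaat1, wrapper, nrv2, pnt and alrm. They were chosen by name, as every probe set whose single gene symbol in the platform's probe-to-gene table was one of these. Of the 10 genes 8 had such a probe set, 1 each, out of 11982 genes that had a single-gene probe set on the array. Eaat1 and pnt were not analysed here. Of the 8 probe sets 7 were bright enough to test, and gcm2 was not.

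Whole dechorionated Drosophila embryos were profiled on Affymetrix Drosophila Genome 2.0 arrays. Embryos labelled elav-dimm had the genotype w;UAS-dimm2A3/+;elav-GAL4/+, in which a myc-tagged copy of the transcription factor gene dimm is switched on by the driver elav-GAL4. Control embryos came from the driver's parental line, w;;elav-GAL4. Both genotypes carry GAL4 in neurons and a w chromosome, and they differ in the UAS-dimm transgene, in the number of GAL4 copies and in the paternal chromosomes. elav is a neuronal gene that is also transcribed for a short time in embryonic glia, which bears on where the driver can act. Each genotype was sampled at stage 14 (22 to 26 h after egg laying per the sample labels) and at stage 16 (28 to 32 h), with 2 arrays in each of the 4 groups. One reading of the series text is that both arrays of a group were hybridised from the same RNA, in which case the spread behind every p-value is technical. Values are log2 signals made with GCRMA, which cannot fall below a floor near 2.19 (lowest value of the stage 16 arrays).

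Glia of the embryonic nervous system arise when neural precursors express gcm, a transcription factor that switches cells from a neuronal to a glial fate. Gcm turns on repo, a homeobox gene expressed in all glia except those of the midline and needed for their differentiation, and repo in turn maintains genes of differentiated glia. Mature classes then separate: surface glia that seal the blood-brain barrier, glia of the cortex and neuropil, among them astrocyte-like cells, and midline glia, which arise without gcm and repo. gcm and its paralog gcm2 also act in haemocytes.

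The arrays had between 7574 and 7651 probe sets above 4 on the log2 scale. The transgene's gene dimm rose by 4.54 ± 0.59 (SE, log2, 4 arrays against 4, adjusted p = 0.0386 in limma) averaged over the stages, and elav differed by 0.02 ± 0.06. dimm read 2.86 and 2.80 in control and 7.59 and 7.66 in elav-dimm at stage 14, and 2.53 and 2.68 against 5.51 and 8.26 at stage 16, so the elav-dimm arrays of stage 16 were far apart. Its single-stage changes did not pass (adjusted p = 0.157 and 0.176). The average change was 5.23 without elav-dimm replicate 1 of stage 16 and 3.85 without replicate 2, both past the threshold, and it missed the threshold without any 1 of the other 6 arrays (adjusted p = 0.0881 to 0.231). Whether RNA quality differed between the arrays was not tested, but the control transcript of actin had an uneven 5' signal at stage 16. Its 5' probe set read 4.72 and 5.64 on the replicate 1 arrays of control and elav-dimm, against 10.04 and 9.47 on the replicate 2 arrays, while at stage 14 it lay between 10.49 and 11.32. Arrays of the same replicate number deviated together at stage 16, so a fit that blocks on the replicate pairs within a stage is quoted where it changes a call in a comparison of the genotypes. A probe set passed when its adjusted p was under 0.05.

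repo was lower in every elav-dimm array than in every control array of its stage. Its log2 signal at stage 14 was 10.70 and 10.71 in the control arrays and 9.96 and 10.13 in the elav-dimm arrays. At stage 16 it was 10.28 and 10.31 in control and 9.53 and 9.26 in elav-dimm. The control pairs thus lay close together at both stages, and the gap between the genotypes was larger than the distance within any pair. Averaged over the stages repo fell by 0.78 ± 0.08 on the log2 scale (SE, 4 arrays against 4), with an adjusted p of 0.0256 in limma, to 0.582 of the control level. Only 61 of the 8258 tested probe sets had a more negative average change. At the single stages the differences were -0.66 ± 0.12 at stage 14 (adjusted p = 0.157) and -0.90 ± 0.12 at stage 16 (adjusted p = 0.0758), which did not pass. With the replicate block stage 16 passed (adjusted p = 0.0427) and stage 14 did not (adjusted p = 0.0805). The effect at stage 16 differed from that at stage 14 by -0.24 ± 0.17 (adjusted p = 1), so no difference between the stages was detected.

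The call on repo depended on which arrays were left out. Leaving out an array leaves 1 array in its group, and over all tested probe sets fewer calls were then made too. Its average change lay between -0.85 and -0.72 when any single array was left out, but it passed only when the omitted array was elav-dimm replicate 1 of stage 16 (adjusted p = 0.0348); without any of the other 7 arrays the adjusted p was 0.0516 to 0.186. Since whole embryos were measured, fewer cells of a type and less RNA per cell cannot be told apart.

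gcm, which acts upstream of repo, did not follow it. Its signal at stage 14 was 10.03 and 9.97 in control and 10.03 and 10.07 in elav-dimm, and at stage 16 it was 8.17 and 7.72 in control and 8.08 and 7.66 in elav-dimm. The genotypes overlapped at both stages, and replicate 1 lay above replicate 2 in both genotypes at stage 16. The average difference was -0.02 ± 0.14, with a 95% interval of -0.37 to 0.34 on the log2 scale. gcm2 lay at 3.84 to 3.92 on the stage 14 arrays and at 2.30 to 2.42 on the stage 16 arrays. Those values are below the brightness needed for testing, and at stage 16 they are close to the floor, so gcm2 has no test.

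**Figure D1:**
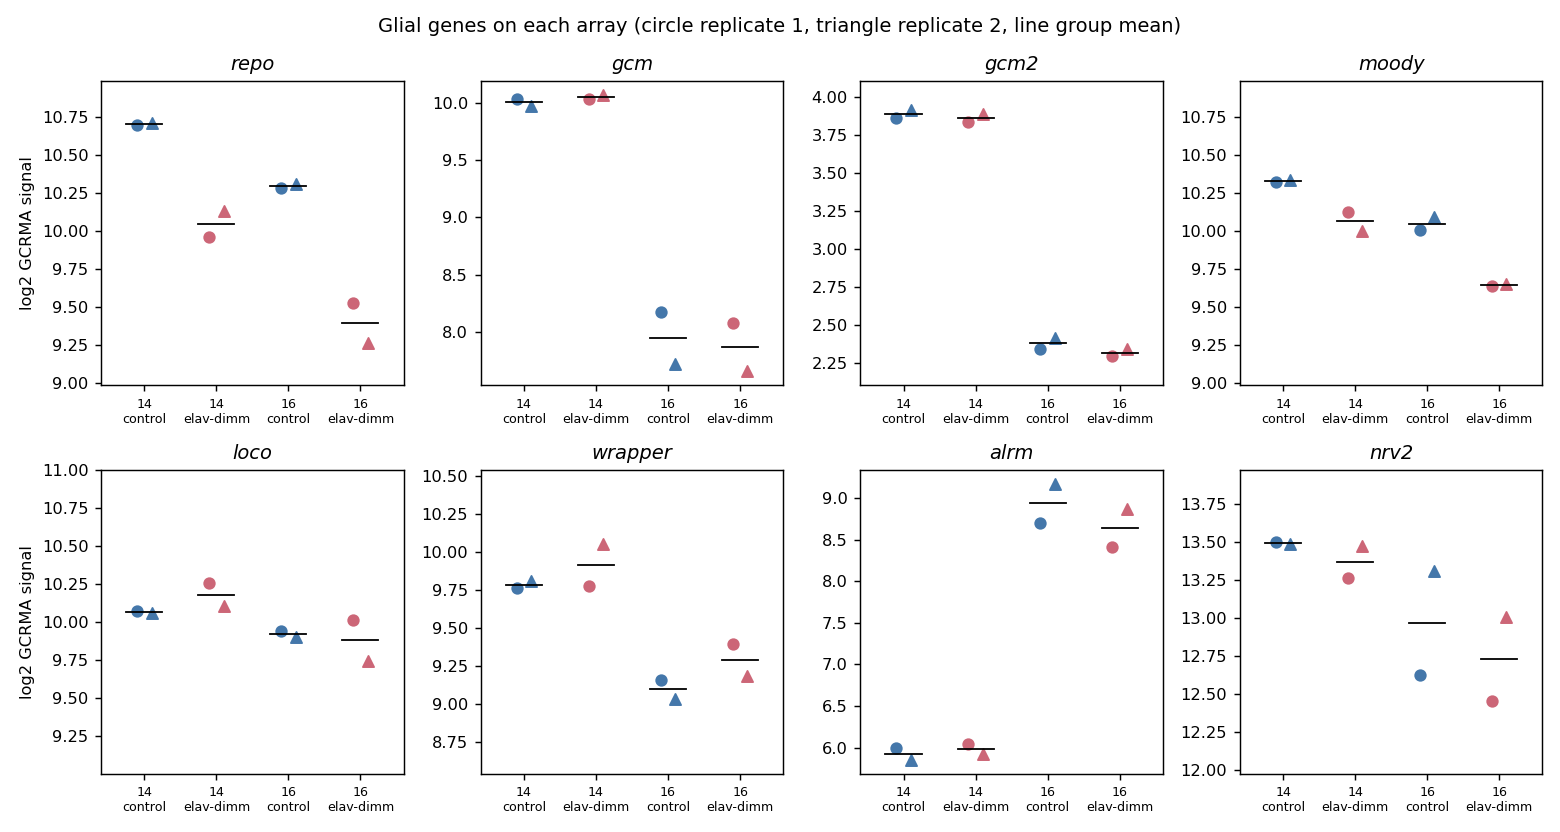
Log2 GCRMA signal of the 8 glial probe sets (1 panel each, with its own vertical range) on every array, by stage and genotype; circles are replicate 1, triangles replicate 2, lines group means. repo and moody are lower in both elav-dimm arrays than in both control arrays at each stage, gcm falls and alrm rises from stage 14 to stage 16 in both genotypes, and gcm2 lies below 4 throughout.

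The surface glia were represented by moody, a G protein-coupled receptor of the glia that form the blood-brain barrier, and loco, a regulator of G protein signalling that acts with it and is a target of Gcm. moody read 10.32 and 10.34 in control and 10.12 and 10.002 in elav-dimm at stage 14, and 10.003 and 10.09 in control and 9.64 and 9.65 in elav-dimm at stage 16. As with repo, the genotypes did not overlap at either stage, with elav-dimm the lower. The average difference was -0.33 ± 0.06 (0.793 of the control level) with an adjusted p of 0.0845, which did not pass, and the replicate block gave an adjusted p of 0.0398. The adjusted p of moody ranged from 0.0398 to 0.368 over the alternative settings. Its differences were -0.27 ± 0.08 at stage 14 and -0.40 ± 0.08 at stage 16. Averaged over the stages, 437 of the 8258 tested probe sets had a more negative change than moody, against 61 for repo. loco read 10.07 and 10.06 in control and 10.26 and 10.10 in elav-dimm at stage 14, and 9.94 and 9.90 against 10.02 and 9.75 at stage 16. At stage 14 the elav-dimm arrays of loco were the higher and at stage 16 they lay on both sides of the control arrays. Its average difference was 0.04 ± 0.08, with a 95% interval of -0.17 to 0.25.

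wrapper, an immunoglobulin superfamily protein of midline glia that enwrap commissural axons, stood for the class that forms without gcm and repo. Its signal was 9.77 and 9.81 in control and 9.78 and 10.05 in elav-dimm at stage 14, and 9.16 and 9.03 against 9.40 and 9.18 at stage 16. The elav-dimm arrays were above the control arrays at stage 16 and overlapped them at stage 14. The average difference of 0.16 ± 0.09 did not pass (adjusted p = 0.66, 95% interval -0.08 to 0.40).

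alrm, a leucine-rich repeat protein of astrocyte-like glia, read 5.997 and 5.85 in control and 6.05 and 5.92 in elav-dimm at stage 14, and 8.71 and 9.18 against 8.41 and 8.87 at stage 16. The genotypes overlapped at both stages, and at stage 16 the elav-dimm array of each replicate number was below its control. The average difference was -0.12 ± 0.15 (adjusted p = 0.942, 95% interval -0.51 to 0.27). nrv2, a beta subunit of the sodium-potassium pump that is abundant in glia and is also used in septate junctions, read 13.50 and 13.49 in control and 13.26 and 13.48 in elav-dimm at stage 14, with elav-dimm the lower by a narrow gap. At stage 16 nrv2 read 12.63 and 13.31 in control and 12.45 and 13.01 in elav-dimm, with both replicate 1 arrays, the arrays of low 5' actin signal, below both replicate 2 arrays. The part of RNA quality in that gap was not tested. The nrv2 probe set is of a type whose probes can match more than 1 transcript, and its average difference of -0.18 ± 0.20 has a 95% interval of -0.69 to 0.32.

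Of the glial genes tested, 1 of 7 passed in the average comparison and it was lower (repo), against 1.5% of all 8258 tested probe sets in either direction and 0.533% in the lower direction. With the replicate block 2 of 7 passed, both lower (repo and moody), against 7.74% of all in either direction and 3.29% in the lower. Both genes also had no overlap of arrays at both stages in the lower direction, which 5.26% of all tested probe sets showed (12% in either direction). At stage 14 alone none of the 7 passed in limma, against 0.339% of all, and 2 had an unadjusted p under 0.05 (repo and moody), against 8% of all. With the block 0 of 7 passed at stage 14, against 1.9% of all. The arrays did not overlap for 4 of 7 at stage 14 (repo, moody and nrv2 lower, loco higher), against 52.2% of all, so that count is not a result about glial genes. At stage 16 alone none of the 7 passed, against 0.363% of all, and 2 had an unadjusted p under 0.05 (repo and moody), against 7.97% of all. With the block 1 of 7 passed at stage 16 (repo), against 2.65% of all. The arrays did not overlap for 3 of 7 at stage 16 (repo and moody lower, wrapper higher), against 22% of all. For the difference of the dimm effect between the stages none passed, against 0.0121% of all, and none had an unadjusted p under 0.05, against 3.02% of all. The median average change was -0.12 over the 7 and 0.00 over all tested probe sets, with 5 of the 7 changes negative. With a choice of 7 probe sets made with earlier results known, these counts describe the genes and carry no test of their own.

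**Figure D2:**
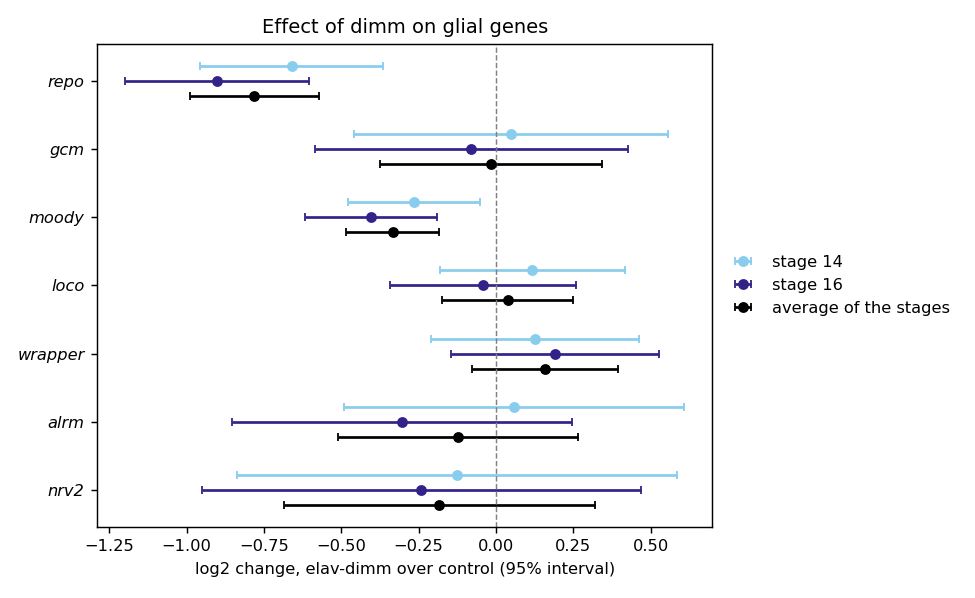
Log2 change of elav-dimm over control embryos (horizontal axis) for the 7 tested glial probe sets at stage 14, at stage 16 and averaged, with 95% intervals of the limma fit that are not adjusted for the number of probe sets. The intervals of repo and moody lie below 0 in all 3 comparisons, from -0.99 to -0.57 for the average change of repo, while those of gcm, loco, wrapper, alrm and nrv2 include 0.

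The genes whose signal most resembled that of repo over the 8 arrays, among 7297 other tested single-gene probe sets, were Est-Q, an esterase gene (Pearson r = 0.958), Ctl2, a choline transporter-like gene (0.955), jim, a zinc finger gene (0.954), Svip (0.951) and Reph (0.948). These correlations describe arrays that share the genotype and stage differences, and moody correlated with repo at 0.942 over the same arrays. Est-Q read 9.41 and 9.37 in control and 8.63 and 8.66 in elav-dimm at stage 14, and 8.49 and 8.60 against 7.74 and 7.65 at stage 16. The average changes of Est-Q (-0.80, adjusted p = 0.00804), jim (-0.77, adjusted p = 0.0256) and Reph (-0.61, adjusted p = 0.0474) passed in limma. Those of Ctl2 (-0.45, adjusted p = 0.0503) and Svip (-0.68, adjusted p = 0.0587) did not.

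Related glial genes were read from lists by role. In the average comparison 12% of all 8258 tested probe sets had an unadjusted p under 0.05. In limma 1.5% of all passed, and 7.74% with the replicate block. The counts of this and the other lists stand beside those shares and only describe the genes. Among the barrier and G protein genes, 0 of 7 tested genes passed in the average comparison in limma, 1 had an unadjusted p under 0.05, and the median change was 0.00. That gene was Tret1-1, a trehalose transporter of the surface glia, which read 12.53 and 12.52 in control and 12.05 and 12.17 in elav-dimm at stage 14, and 12.24 and 12.33 against 11.51 and 11.84 at stage 16. Its arrays did not overlap at either stage, and its difference of -0.51 ± 0.09 passed with the replicate block (adjusted p = 0.03) but not without it (adjusted p = 0.0867). Among engulfment genes 0 of 4 passed, 1 had an unadjusted p under 0.05, and the median change was 0.01. That gene was NimC4, a receptor used by glia and haemocytes to take up dead cells, which read 11.97 and 11.90 against 11.73 and 11.69 at stage 14 and 11.31 and 11.15 against 10.83 and 10.65 at stage 16. The difference of NimC4 was -0.36 ± 0.07, which likewise passed with the block (adjusted p = 0.0282) but not without it (adjusted p = 0.113). The adjusted p over the alternative settings ranged from 0.03 to 0.373 for Tret1-1 and from 0.0282 to 0.431 for NimC4.

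Not all related genes were lower. Among genes of neuropil glia and FGF signalling 0 of 4 passed, 1 had an unadjusted p under 0.05, and the median change was 0.00. That gene, Gs2, encodes glutamine synthetase, which in astrocyte-like glia converts glutamate to glutamine. Gs2 read 10.33 and 10.28 in control and 10.82 and 10.52 in elav-dimm at stage 14, and 9.503 and 9.66 against 9.83 and 10.05 at stage 16, with elav-dimm the higher at both stages. Its difference of 0.36 ± 0.10 missed the threshold (adjusted p = 0.217) and passed with the block (adjusted p = 0.0489), within a range of 0.0489 to 0.659 over the alternative settings. Among midline glia and EGF receptor pathway genes 0 of 7 passed and 0 had an unadjusted p under 0.05 (median -0.02). For the sodium pump (2 tested, median -0.14) and other glial genes (3 tested, median 0.00) the counts were also 0 and 0.

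Of 3 tested regulators of the glial fate choice 1 passed, and it was higher. pros, a homeobox gene of neural precursors, glia and young neurons, rose by 0.48 ± 0.07 (adjusted p = 0.0476), from 10.58 and 10.55 to 10.98 and 10.98 at stage 14 and from 9.48 and 9.44 to 10.11 and 9.89 at stage 16. The arrays of pros did not overlap at either stage. Its adjusted p missed the threshold under 14 of 18 alternative settings, with a range of 0.0235 to 0.265. hkb (-0.06 ± 0.08) and retn (0.08 ± 0.12) did not pass.

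**Figure D3:**
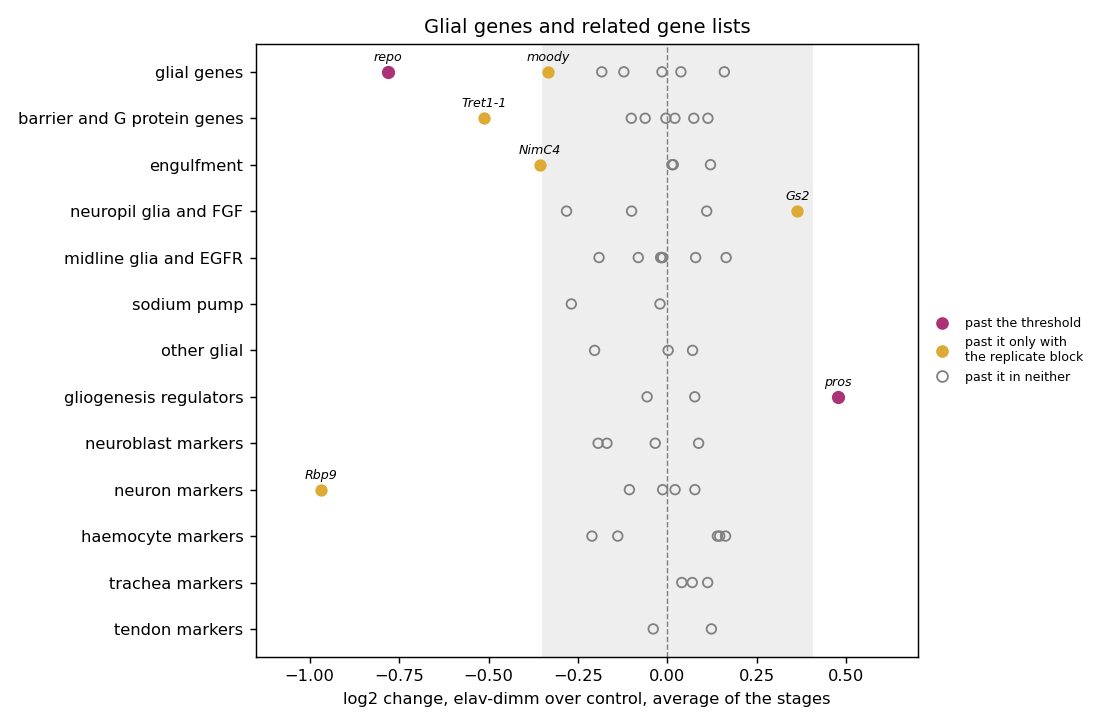
Log2 change of elav-dimm over control averaged over the stages (horizontal axis) for every tested gene of the glial genes and of 12 related lists (rows), 1 point a gene; the grey band spans the 5th to 95th percentile of all tested probe sets, -0.35 to 0.40. Filled points passed with or without the replicate block: repo, moody, Tret1-1, NimC4 and Rbp9 on the left, Gs2 and pros on the right.

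Markers of other cell types were read beside the fall of repo. None of 5 haemocyte markers, 3 tracheal markers, 2 tendon markers and 4 neuroblast markers passed in the average comparison in limma, and none had an unadjusted p under 0.05. At stage 16 alone none passed in limma either. There 1 haemocyte marker and 1 neuroblast marker had an unadjusted p under 0.05, against 7.97% of all tested probe sets. The most negative changes of these 2 lists at stage 16 were those of ush (-0.40, and 0.12 at stage 14) and wor (-0.38, and 0.04 at stage 14). Of the 9 haemocyte markers the defining genes Hml, He, NimC1 and lz were too dim to test, with Hml and He at or next to the floor. The summed signal of the 5 tested haemocyte markers, on the log2 scale, was 13.04 to 13.09 in control and 13.15 to 13.18 in elav-dimm at stage 14, and 13.41 to 13.70 against 13.59 to 13.71 at stage 16. That of the 4 neuroblast markers was 12.51 to 12.52 against 12.53 to 12.55 at stage 14, and 10.82 to 11.001 against 10.60 to 10.67 at stage 16. The summed haemocyte marker signal was thus slightly higher at stage 14 in elav-dimm. There 4 of the 5 changes were positive, and that of Pxn was negative (-0.18). The array medians of all tested probe sets were also higher in elav-dimm at stage 14, 8.75 and 8.74 against 8.69 and 8.68. The summed neuroblast marker signal was slightly lower at stage 16, with 3 of 4 changes negative. Whether either cell type changed in number, and the part of these shifts in the result, was not tested. Among 5 neuron markers 0 passed, and 1 had an unadjusted p under 0.05, against 12% of all tested probe sets. This was Rbp9, a neuronal RNA-binding protein gene, with a difference of -0.97 ± 0.19 (adjusted p = 0.0946, and 0.027 with the block, within a range of 0.027 to 0.377 over the alternative settings). Its change was -1.55 ± 0.26 at stage 14 (adjusted p = 0.143, and 0.0396 with the block) and -0.38 ± 0.26 at stage 16 (adjusted p = 0.869), and the difference between the stages, 1.17 ± 0.37, did not pass (adjusted p = 1).

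The stages were compared within each genotype. Control embryos showed 5 of 7 glial probe sets past the threshold (1 higher and 4 lower), against 60.8% of all tested probe sets (21.8% higher and 39% lower). In elav-dimm embryos it was also 5 of 7 (1 higher and 4 lower), against 63.5% of all (20.7% higher and 42.8% lower). The arrays of the stages did not overlap for any of the 7 in either genotype, against 84.5% of all in control and 85.6% in elav-dimm. Those shares are close to the background, so the counts are not a result about glial genes. The median log2 change over all tested probe sets was itself negative, -0.38 in control and -0.44 in elav-dimm. The array medians were also lower at stage 16. In control they were 8.69 and 8.68 at stage 14 against 8.45 and 8.49 at stage 16. In elav-dimm they were 8.75 and 8.74 against 8.44 and 8.44. The lowest value of the arrays differs between the stages, and no label or processing note says whether the stages were normalized together.

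The stage changes that passed under all 3 scalings in both genotypes were those of gcm and alrm. gcm fell by 2.05 ± 0.20 in control and by 2.18 ± 0.20 in elav-dimm (adjusted p = 0.00046 and 0.000344), to 0.241 and 0.221 of its stage 14 level. With each array centred on its median the changes of gcm were -1.84 and -1.88, and with all 8 arrays quantile-normalized together they were -1.84 and -1.89, all past the threshold. alrm rose by 3.02 ± 0.22 in control, 8.09-fold, and by 2.65 ± 0.22 in elav-dimm, 6.29-fold (adjusted p = 0.000138 and 0.000217). The rises of alrm were 3.23 and 2.96 with median centring and 3.20 and 2.92 with quantile normalization. The early fate gene was thus the lower and the astrocyte gene the higher at stage 16 in both genotypes, with no array of a stage overlapping those of the other. The difference of the dimm effect between the stages was -0.13 ± 0.29 for gcm and -0.36 ± 0.31 for alrm, and neither passed (adjusted p = 1 for both).

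The other glial genes had smaller stage changes than gcm and alrm, and most of their calls depended on the scaling. repo changed by -0.41 ± 0.12 in control and by -0.65 ± 0.12 in elav-dimm as deposited (adjusted p = 0.0285 and 0.00499), but after median centring by -0.20 (adjusted p = 0.23) and -0.35 (adjusted p = 0.0606). moody changed by -0.28 ± 0.08 and -0.42 ± 0.08 (adjusted p = 0.0329 and 0.00762), and after centring by -0.07 (adjusted p = 0.529) and -0.11 (adjusted p = 0.306). wrapper changed by -0.69 ± 0.13 in control and -0.62 ± 0.13 in elav-dimm, and after centring the control change of -0.48 passed (adjusted p = 0.0351) and the elav-dimm change of -0.32 did not (adjusted p = 0.111). loco (-0.14 and -0.30) and nrv2 (-0.53 and -0.64) did not pass in either genotype, and loco changed by 0.07 and 0.00 after centring. With the block within a stage nrv2 passed in both genotypes (adjusted p = 0.00558 and 0.00288) and loco in elav-dimm (adjusted p = 0.0327). The replicate pairs lie inside a stage, so that fit leaves the spread between pairs out of the error of a stage comparison.

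**Figure D4:**
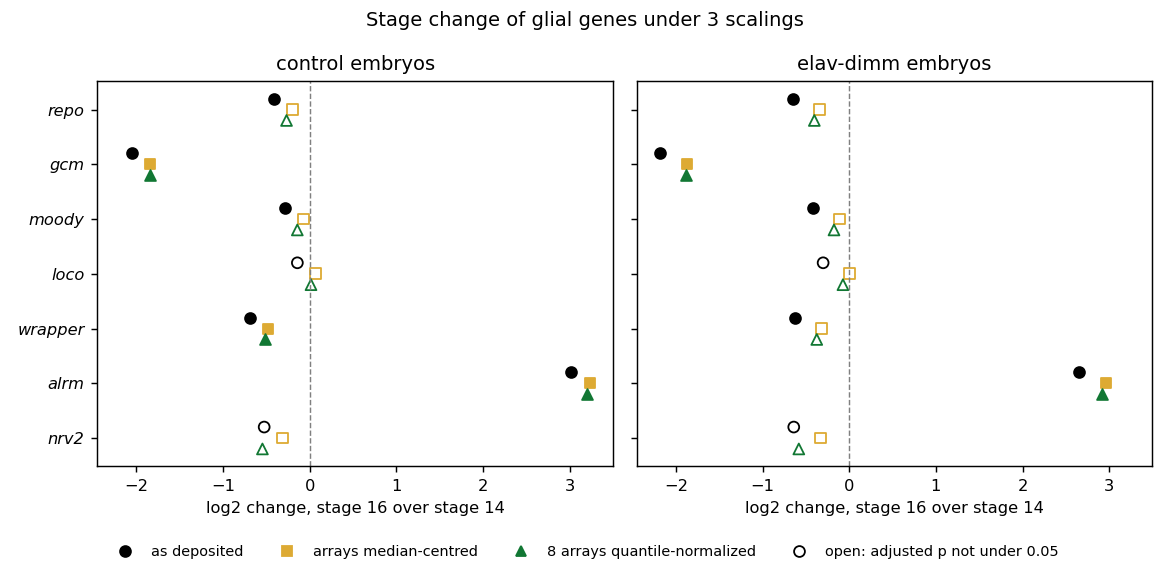
Log2 change from stage 14 to stage 16 (horizontal axis) of the 7 tested glial probe sets in control (left) and elav-dimm embryos (right) under 3 scalings; filled symbols have an adjusted p under 0.05. gcm (below -1.8) and alrm (above 2.6) are filled under every scaling, while repo and moody are filled only for the values as deposited.

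Members of several related lists changed with stage. The largest change among the tested genes of these lists was that of nSyb, a synaptic vesicle gene among the neuron markers, which rose by 4.20 in control and by 4.18 in elav-dimm from a level near the floor at stage 14. Col4a1, a collagen gene among the haemocyte markers, rose by 2.71 and by 2.83. nrv3, another beta subunit of the pump, rose by 2.02 in control and by 2.04 in elav-dimm (adjusted p = 0.000188 and 0.000173), in contrast to nrv2; nrv1, which neighbours nrv2 with no protein-coding gene between them, did not pass in either. All 4 neuroblast markers were lower at stage 16 in both genotypes, among them ase by a log2 change of -2.31 in control and dpn by -1.90. The fate regulators hkb and pros were also lower at stage 16, hkb by -1.71 in control and -1.78 in elav-dimm and pros by -1.11 and -0.98, under all 3 scalings. NimC4 fell by 0.70 in control and by 0.97 in elav-dimm, and Shark, a kinase of the engulfment pathway, fell by 1.28 and by 1.55. The barrier genes Gli, Galphai and Cont fell in both genotypes as deposited, by 1.27, 0.91 and 0.94 in control. The falls of Cont did not pass after median centring (adjusted p = 0.0666 in control). With quantile normalization they passed in limma, at -0.93 in control and -0.86 in elav-dimm (adjusted p = 0.00694 and 0.00928). Gat, the GABA transporter of astrocyte-like glia, was singled out after its values were seen. It read 2.20 on every stage 14 array, and at stage 16 it read 2.61 and 7.48 in control and 2.49 and 6.47 in elav-dimm, high only on the replicate 2 arrays. The replicate 1 arrays of stage 16 are those with low 5' actin signal, so its rise has no settled size, and the part of RNA quality in it was not tested.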

How the data were processed

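Per the submitters' processing notes, the authors ran GCRMA 2.22.0 in R 2.12.1 (limma is listed too) and deposited a log2 value for each probe set on each array. Of the 18952 probe sets 183 controls were left out. Probe sets above 4 on at least 2 of 8 arrays, 8258 in all, were tested with limma 3.58.1 in R 4.3.3 on the 4 group means (4 residual degrees of freedom), adjusted by Benjamini-Hochberg over all of them at 0.05. ± after a log2 change is the fit's standard error. The fit was tested on simulated data with independent noise on each array, so that test does not cover replicate pairs that deviate together.

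Replicates are numbered 1 and 2 in every group. The difference of replicate 2 from replicate 1 in control and that in elav-dimm had a correlation across probe sets of 0.906 at stage 16 and of 0.155 at stage 14 (-0.0241 to 0.134 for groups of different stages), so the pairing within a stage comes from the numbers and these correlations. The block leaves 2 residual degrees of freedom.

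The glial genes and the 13 other gene lists were chosen with earlier results of these data known. Of 91 listed genes 69 had a single-gene probe set, none of them a muscle marker, and the other 22 were not analysed here. A listed gene is represented by its brightest probe set. Named were the glial genes, dimm, elav, up to 4 genes of a list past the threshold in any comparison, the 5 genes most like repo, and genes past it only with the block or by an unadjusted p, added after their values were seen. RefSeq names of Release 6 plus ISO1 MT gave neighbours. Alternatives were other filters, floors, scalings, weights, blocks and omitted arrays.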

Additional observations from a re-analysis of the deposited data

How the results depend on the processing

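In the comparison averaged over the stages, 2 of the 7 glial probe sets passed with the replicate block and 0 without a filter on low values, with array weights or with the arrays of a group averaged, against 1 as reported; leaving out single arrays gave 0 to 1. The averaging was chosen after seeing the data. repo kept a negative change under all 18 alternatives (-0.85 to -0.72) and passed under 8. It did not pass without a filter (adjusted p = 0.0864), with array weights (adjusted p = 0.0703) or with averaged arrays (adjusted p = 0.168). At stage 14, 2 passed with array weights (repo and moody). With group means fitted to 2 arrays a group, both arrays of a group must get the same weight. The weights thus could not set a poor array apart from its replicate. They were 4.42 in control and 2.67 in elav-dimm at stage 14, and 0.256 and 0.33 at stage 16. At stage 16, 1 passed with the replicate block. Leaving out both low 5' arrays left 1 array in each stage 16 group. There repo changed by -1.04 at stage 16 and by -0.85 averaged over the stages, the largest fall among the alternatives. For single stages and for the difference between stages, leaving out single arrays gave 0 to 0. In the stage change of control embryos 3 passed with median centring, quantile normalization or array weights, against 5, and 3 to 5 when single arrays were left out; in elav-dimm embryos 2 passed with either scaling, against 5, and 5 to 6 when single arrays were left out. The cause of these differences was not tested. A block of the replicate number across all groups gave 5 and 6 (nrv2 added), and the block within a stage, which leaves the spread between pairs out of a stage comparison, gave 6 and 7. Over all 8258 probe sets the average comparison called 124, and 639 with the replicate block, 44 without a filter, 43 with array weights and 3 with averaged arrays. Of the 735 changes of glial probe sets under alternatives 694 stayed on the same side of the threshold, 30 lost it and 11 gained it; no change past the threshold turned its sign, and 26 that were past none did. The 2 arrays of a group limit all of these values.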
